A study of Mus musculus with 8 samples.

Results

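The immediate early genes followed here are Fos, Fosb, Fosl1, Jun, Junb, Jund, Egr1, Ier2, Ier3 and Atf3, 10 of the 23393 gene symbols measured, taken from a list of names rather than by a threshold on their values. The list was chosen with earlier results of these data known, so member counts set beside shares over all genes only describe these libraries. The 10 genes were read in 8 poly(A) RNA-seq libraries made from epithelium of the embryonic mouse gut at E16.5, 2 from each of 4 tissues: forestomach (the front of the stomach, lined by squamous epithelium), hindstomach (the glandular rear), proximal small intestine (called intestine below) and colon. All embryos were ShhCre;R26YFP/+, in which Cre made from the Shh locus, active in gut epithelium, switches on a yellow fluorescent reporter, so there was no group without these alleles and no drug treatment. The forestomach was incubated in Dispase, a protease, for 15 minutes at 37 °C and its epithelium was peeled away by hand, whereas the other tissues were kept in EDTA, which loosens cell contacts by binding calcium, for 30 to 40 minutes at 4 °C and then shaken. EDTA was at 10 mM for the hindstomach and 5 mM for intestine and colon. Forestomach identity and Dispase isolation, and hindstomach identity and the higher EDTA concentration, therefore cannot be told apart. The labels number 2 replicates per tissue and do not say if these were separate embryos or pools, so each p-value reflects just the scatter among libraries, and that scatter may be technical.

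Immediate early genes are transcribed within minutes of a stimulus without new protein synthesis, from promoters held ready for serum response factor, Creb and related factors. Fos and Jun proteins pair through leucine zippers to form AP-1, which binds DNA at its own recognition site. Growth factors, wounding, heat and tissue dissociation all induce them, and some, such as Junb and Klf4, are also expressed steadily in stratified epithelium.

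Values are FPKM, fragment counts scaled by transcript length and library total, so that levels can be set side by side between genes. Between libraries they depend on that total, which a few abundant genes can shift, so calls are also given with median-of-ratios scaling where it changes them. Summed squamous markers (8 genes) were 1439 and 15394 FPKM in forestomach replicates 1 and 2 and 3.98 to 94.02 in the other 6 libraries. The library labelled forestomach replicate 1 stood apart all the same: its 8 glandular stomach markers summed to 164565 FPKM against 2354 in forestomach replicate 2 and 24966 and 31426 in the hindstomach, and its 6 smooth muscle markers to 4615 against 24.3. Over the genes tested, its Pearson's r of log2(FPKM + 1) was 0.713 with forestomach replicate 2 but 0.778 and 0.801 with hindstomach replicates 1 and 2. The pairs of the other tissues had r of 0.959 (colon) to 0.984 (intestine). Counts of members called and list counts are therefore also given without that library. The 8 intestinal markers summed to 12457 and 18929 FPKM in the intestine, 9764 and 3177 in the colon and at most 2671 in the stomach. Sums of the 8 colon markers overlapped between colon (93.96 and 53.5) and intestine (76.1 and 106), but all 8 were above 0 only in the colon, where their median log2(FPKM + 1) was 2.78 and 2.56 against 0.03 and 0.01 in the intestine. Of 6 erythroid markers, 3 to 5 were at 0 in each library. Depth is known only in relation: the steps of the lowest values put the libraries at 0.428 to 1 of intestine replicate 1, with hindstomach replicate 2, forestomach replicate 2, colon replicate 1 and intestine replicate 2 at 0.428 to 0.495.

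Junb and Ier3 were the members that stood out in the forestomach. Junb encodes an AP-1 subunit that restrains c-Jun activity in many settings, and Ier3 a short-lived regulator of apoptosis and of NF-kB and Erk signalling. Ier3 was at 21.2 and 30.4 FPKM in forestomach replicates 1 and 2, at 5.32 and 7.71 in the hindstomach, at 4.24 and 3.82 in the intestine and at 4.47 and 4.44 in the colon. Junb was at 48.6 and 82.7 FPKM in the forestomach, 18.7 and 23.7 in the hindstomach, 14.2 and 14.9 in the intestine and 15.97 and 21.1 in the colon. For both genes each forestomach library lay above all 6 others, and the higher of the pair was forestomach replicate 2, the library with the lower glandular and smooth muscle sums. Ranked within each library among the 12894 genes tested, which takes no account of scaling, Ier3 lay at percentiles 83.3 and 86.0 in the forestomach and between 30.0 and 49.7 elsewhere, and Junb at 92.9 and 95.4 against 69.2 to 79.5. In bulk tissue more cells that express a gene and more RNA per cell cannot be told apart.

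The 120 bases before the RefSeq start site are shown for Junb and Ier3, the members called in every forestomach comparison, and for Fos, the best known inducible promoter of the group (RefSeq, GRCm38.p6, 5′ to 3′ on the gene's strand). They lie at chr8:84978749-84978868 (minus strand), chr17:35821593-35821712 (plus strand) and chr12:85473770-85473889 (plus strand). Capitals mark the motif matches described next.
Junb: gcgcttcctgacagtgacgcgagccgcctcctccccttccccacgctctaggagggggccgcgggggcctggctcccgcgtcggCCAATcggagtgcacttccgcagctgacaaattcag
Ier3: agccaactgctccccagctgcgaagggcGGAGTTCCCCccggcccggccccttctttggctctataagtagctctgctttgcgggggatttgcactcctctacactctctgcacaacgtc
Fos: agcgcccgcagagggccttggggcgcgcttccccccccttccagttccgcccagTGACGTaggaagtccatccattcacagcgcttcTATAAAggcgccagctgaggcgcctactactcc

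In 250 bases upstream, searched on both strands for the 7 members with a RefSeq promoter entry (Atf3, Fos, Fosb, Ier3, Jun, Junb and Jund), the motifs found were few. TGACGT, the core of the Creb element, was in Fos and Atf3 and in 6.47% of all 32851 promoters. TATAAA was in Fos (12.4% of all promoters), CCAAT in Ier3, Jun and Junb (33.8%), GCGGGGGCG, bound by Egr proteins, in Fosb (2.57%), and the NF-kB site in Fos, Fosb and Ier3 (3.90%). The CArG box of serum response factor (1.47% of all promoters), the AP-1 site TGANTCA (6.75%) and the full Creb element TGACGTCA, which contains TGACGT (1.55%), had no match in these windows. Sequence further upstream, variant sites and the promoters of Egr1, Ier2 and Fosl1 were not searched. The lack of a match therefore does not show that the members lack such sites. In the stretches shown, the capitals are CCAAT in Junb, the NF-kB site on the opposite strand in Ier3, and TGACGT and TATAAA in Fos.

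In GRCm38 (GENCODE M21) Junb lies on chromosome 8 from 84974484 to 84978718 and Ier3 on chromosome 17 from 35821684 to 35822923, both protein coding. The annotated Junb span overlaps Prdx2 on the opposite strand, and whether counting used strand is not given in the sources used here. Prdx2 was at 71.5 and 124 FPKM in the forestomach and between 75.8 and 115 in the other tissues. Between forestomach replicates 1 and 2 both genes were higher in replicate 2, and how far reads from 1 gene were counted for the other was not tested.

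**Figure D1:**
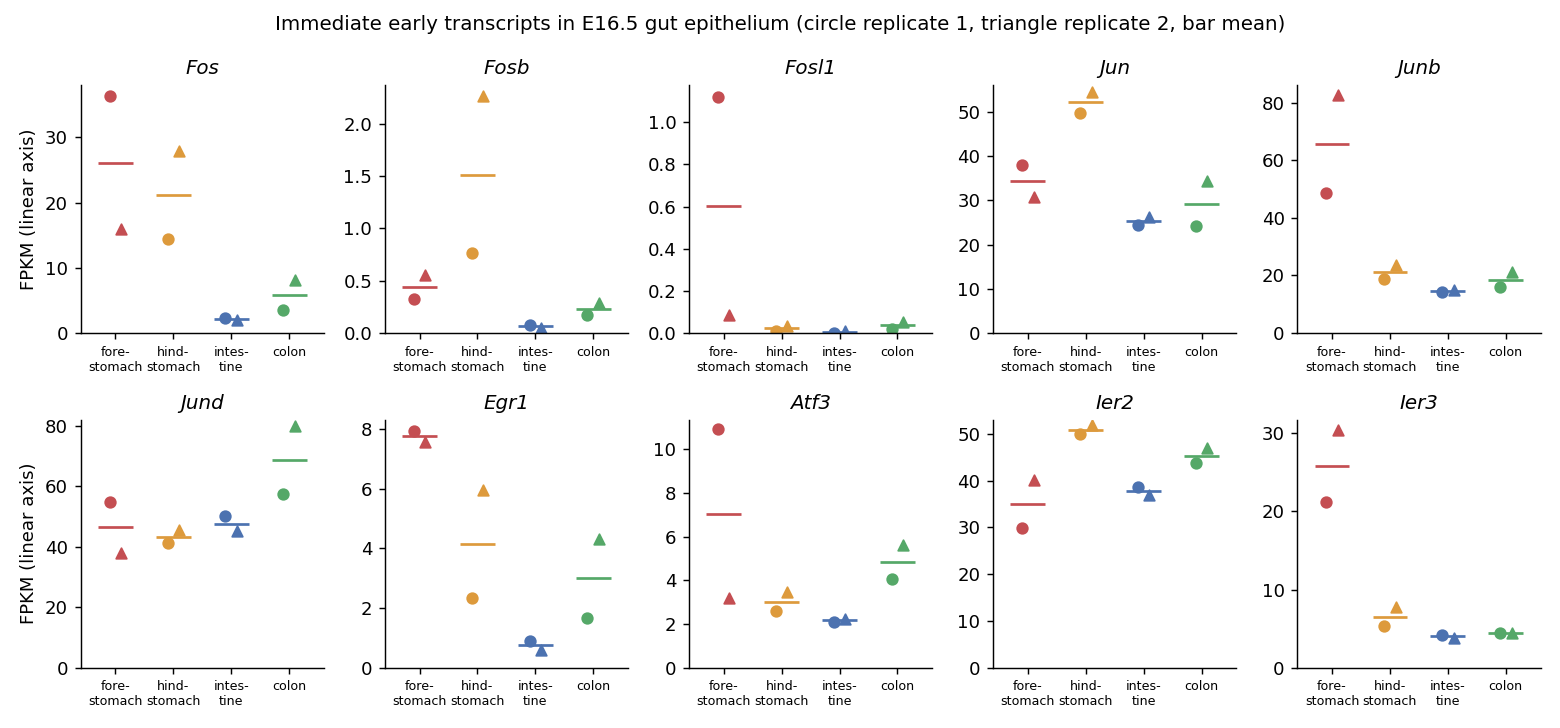
FPKM on linear axes for the 10 members by tissue. A circle is replicate 1, a triangle replicate 2 and a horizontal line their mean. Junb and Ier3 are high in both forestomach libraries, Jun and Ier2 are highest in the hindstomach on this scale but not after median-of-ratios scaling, and Fos is lowest in the intestine (2.24 and 2.06 FPKM).

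Fos was high in both stomach tissues and Egr1 was highest in the forestomach, and both genes were lowest in the intestine. Fos, the founding AP-1 partner of Jun, was at 36.3 and 15.9 FPKM in the forestomach, 14.4 and 27.9 in the hindstomach, 2.24 and 2.06 in the intestine and 3.57 and 8.15 in the colon. The forestomach and hindstomach values interleave, while all 4 stomach libraries lie above all 4 of intestine and colon, as they did for Fosb and Ier3 too and for 4.11% of genes tested. Fosb itself was not among the genes tested. Egr1, a zinc finger factor downstream of Erk signalling, was at 7.95 and 7.57 FPKM in the forestomach, 2.33 and 5.95 in the hindstomach, 0.895 and 0.607 in the intestine and 1.67 and 4.32 in the colon. Both forestomach values of Egr1 are above the other 6, but hindstomach and colon overlap. Fos lies on chromosome 12 from 85473890 to 85477273.

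Fos and Egr1 also varied most between the libraries of a tissue among the called members, by up to 2.28-fold for Fos and 2.59-fold for Egr1. In all 4 tissues the library with the higher Fos was the one with the higher summed smooth muscle markers. These sums were 4615 and 24.3 FPKM in the forestomach, 84.6 and 192 in the hindstomach, 257 and 58.9 in the intestine and 579 and 1173 in the colon, and none of the 6 genes was at 0. The 8 mesenchyme markers ran the same way, at 393 and 74.1, 140 and 202, 176 and 33.5, and 292 and 747 FPKM. So did the 6 endothelium markers, at 19.5 and 0.560, 7.50 and 12.8, 16.7 and 2.76, and 18.1 and 52.2 FPKM. Sums of immune, enteric neuron and glia, and erythroid markers ran the other way in the hindstomach. The erythroid sum also did so in the forestomach, at 0.367 and 0.582 FPKM in replicates 1 and 2. How many genes at large ran the same way was not counted. The part of smooth muscle, mesenchyme and endothelial cells in the Fos and Egr1 values was not tested. Across tissues the order differed: Fos was at 15.9 FPKM in forestomach replicate 2, where the smooth muscle sum was lowest, and at 8.15 in colon replicate 2, where it was 1173.

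Jun, Ier2 and Fosb had their highest FPKM in the hindstomach, but for Jun and Ier2 the separation depended on the scaling. Jun, the main activating Jun subunit, was at 49.8 and 54.5 FPKM there, 37.9 and 30.8 in the forestomach, 24.5 and 26.2 in the intestine and 24.1 and 34.4 in the colon. Ier2, a nuclear protein of the serum response, was at 49.9 and 51.9 FPKM in the hindstomach, 43.7 and 46.98 in the colon, 38.5 and 36.9 in the intestine and 29.9 and 40.1 in the forestomach. Both hindstomach libraries lie above the other 6 in FPKM for each gene, and the tissue means of Ier2 differ by 1.45-fold at most. With median-of-ratios scaling this no longer held: Jun was at 46.6 in forestomach replicate 1 and 44.1 in hindstomach replicate 1, and Ier2 at 44.2 and 45.7 in the hindstomach but 45.8 in forestomach replicate 2. Fosb, a close relative of Fos, was scarce: 0.765 and 2.26 FPKM in the hindstomach, 0.328 and 0.557 in the forestomach, 0.176 and 0.283 in the colon and 0.0754 and 0.0508 in the intestine. The order of its 4 tissue pairs has no overlap, though hindstomach replicate 2 holds most of its signal.

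Jund, the steadily expressed Jun subunit, was the most evenly spread Jun gene. It was at 57.5 and 79.97 FPKM in the colon, 50.2 and 45.1 in the intestine, 41.2 and 45.6 in the hindstomach and 54.96 and 38.1 in the forestomach, so that the colon pair lies above the rest in FPKM and the other pairs overlap. With median-of-ratios scaling the colon pair, at 52.1 and 63.6, overlapped the intestine and lay below forestomach replicate 1 at 67.6. Atf3, a stress-induced repressor of the same bZIP class, reached 10.9 FPKM in forestomach replicate 1 but 3.18 in forestomach replicate 2. Its other values were 2.60 and 3.45 in the hindstomach, 2.11 and 2.23 in the intestine and 4.07 and 5.63 in the colon, which reached above forestomach replicate 2. Fosl1, encoding Fra-1, was near 0 everywhere except that same library: 1.12 FPKM there, 0.0840 in forestomach replicate 2, at most 0.0511 in the other 6 and listed at 0 in intestine replicate 1. Fosl1 overlaps Ccdc85b on the opposite strand, which was also highest in that library, at 52.0 FPKM against 14.6 to 45.2 in the others, and the part of its reads in the Fosl1 value was not tested. The Atf3 and Fosl1 means for the forestomach therefore rest on the library that stood apart.

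Counted over the 10 members, both forestomach libraries lay above the other 6 for 4 (Junb, Ier3, Egr1 and Fosl1), which happened for 5.17% of genes tested. Both hindstomach libraries lay above for 3 (Jun, Ier2 and Fosb), against 12.1% of genes, and both colon libraries for Jund alone, against 8.26%. Both intestine libraries lay below the other 6 for 7 members, Jun, Jund and Ier2 being the exceptions, against 17.4% of genes. With median-of-ratios scaling, tried after these counts were seen, the forestomach count stayed at 4 with the same members. The hindstomach count fell to 1 (Fosb), the colon count to 0 and the intestine count to 3 (Fos, Fosb and Egr1). In FPKM, leaving out forestomach replicate 1 gave 4 for the forestomach, 3 for the hindstomach, 2 for the colon (Jund and Atf3) and 8 for the intestine (Ier2 added). The shares over all genes are for FPKM in all 8 libraries, and none was taken under the other settings, so those counts have no share beside them. With forestomach replicate 1 left out fewer libraries must separate, which is easier to meet. Fosb and Fosl1 are in all these counts but did not reach 1 FPKM in 2 libraries, so 8 of 10 members were tested. The shares are over tested genes only. Among the 8 tested members the counts in FPKM with all 8 libraries were 3 for the forestomach and 2 for the hindstomach. They were 1 for the colon and 5 for the intestine. Fosl1 separated near 0, at 0.0840 FPKM in forestomach replicate 2 against at most 0.0511 outside the forestomach.

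Differences were tested with limma on log2(FPKM + 1), a scale that understates the change of low genes, and calls needed at least 2-fold change with p under 0.05 after Benjamini-Hochberg adjustment over all genes. The 3 forestomach comparisons share the forestomach libraries and are set side by side, not counted as separate support. Against the hindstomach, Ier3 rose in the forestomach by 1.83 ± 0.26 (log2 difference ± SE, adjusted p = 0.0189) and Junb by 1.55 ± 0.30 (adjusted p = 0.0405). These were 2 of 8 members, with 1.33% of genes called higher. Against the intestine 4 of 8 rose, with 5.78% of genes called higher: Fos by 3.00 ± 0.53 (adjusted p = 0.0133), Ier3 by 2.39 ± 0.26 (0.00287), Egr1 by 2.33 ± 0.46 (0.0185) and Junb by 2.05 ± 0.30 (0.00736). Against the colon Ier3 (2.27 ± 0.26, adjusted p = 0.00446) and Junb (1.74 ± 0.30, adjusted p = 0.0177) rose, with 2.41% of genes called higher. Fos, at a difference of 1.96 ± 0.53, missed the threshold there (adjusted p = 0.0615) but was called with median-of-ratios scaling.

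The same 4 members rose in the forestomach against the mean of the other 3 tissues, with 3.8% of genes called higher and 9.69% lower. The differences were 2.17 ± 0.21 for Ier3 (4.49-fold, adjusted p = 0.00215), 1.78 ± 0.24 for Junb (3.43-fold, adjusted p = 0.00661), 1.74 ± 0.43 for Fos (3.33-fold, adjusted p = 0.0383) and 1.47 ± 0.37 for Egr1 (2.77-fold, adjusted p = 0.0403). No member was called lower. The estimates for Jun, Jund, Ier2 and Atf3 were 0.02 ± 0.18, -0.18 ± 0.21, -0.35 ± 0.16 and 0.75 ± 0.40, none of them called. The median over the 8 members tested was 1.11, against -0.32 over all genes tested and, with median-of-ratios scaling, 1.41 against -0.04. Without the library labelled forestomach replicate 1 it was 0.58 against -0.24, with 4 members positive instead of 6.

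Without the library labelled forestomach replicate 1, where the remaining forestomach library is assumed to vary like the other groups, Ier3 and Junb differed by more and Fos and Atf3 by less. Ier3 and Junb were called against each tissue (6.55%, 11.3% and 6.44% of genes called higher against hindstomach, intestine and colon), and Fos and Egr1 against the intestine. Against the mean of the 3 other tissues Ier3 (2.42 ± 0.20, adjusted p = 0.000715) and Junb (2.15 ± 0.20, adjusted p = 0.000929) were called, with 7.56% of genes called higher and 16% lower. Fos (1.16 ± 0.46, adjusted p = 0.0951) and Egr1 (1.44 ± 0.50, adjusted p = 0.0699) were not. Against the hindstomach the Fos estimate turned from 0.25 ± 0.53 to -0.32 ± 0.52, neither called. The difference of Atf3 from the other 3 tissues went to 0.00 ± 0.21, whereas without forestomach replicate 2 it was 1.51 and called (adjusted p = 0.00373).

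**Figure D2:**
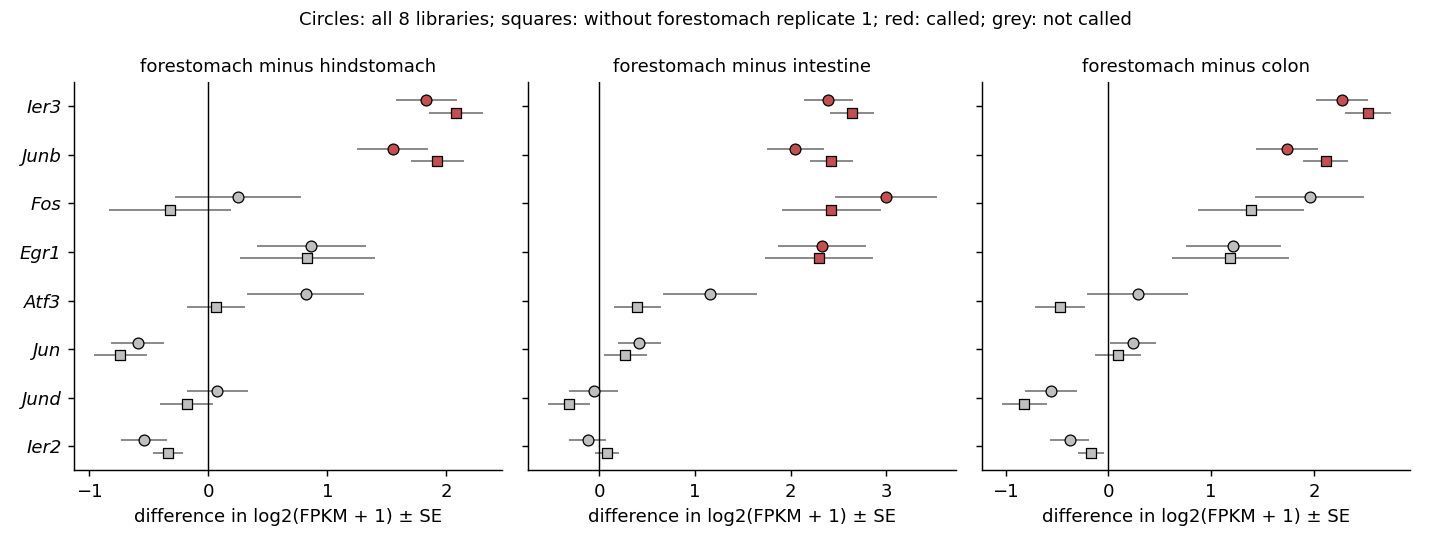
Difference in log2(FPKM + 1) between the forestomach and each other tissue for the 8 members tested, with the SE as bars, circles for all 8 libraries, squares without forestomach replicate 1 and red for called genes. Ier3 and Junb are red in all 3 panels in both fits, Fos and Egr1 only against the intestine.

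Several of these calls ended when a single library was left out, which also leaves fewer libraries for the shared spread. The Ier3 call held without each library in turn against the intestine, the colon and the mean of the other tissues. Against the hindstomach it ended without either hindstomach library (adjusted p = 0.172 and 0.0907 without replicates 1 and 2) and without either intestine library (0.0664 and 0.0668), which enter only the shared spread. The Junb call against the mean also held without each library. Against the hindstomach it held only without either forestomach library, ending without hindstomach replicates 1 and 2 (adjusted p = 0.270 and 0.185), intestine replicates 1 and 2 (0.116 for each) and colon replicates 1 and 2 (0.0778 and 0.0761). Against the colon it ended without intestine replicates 1 and 2 (0.0537 for each) and colon replicates 1 and 2 (0.118 and 0.0609). Against the intestine the Junb, Fos and Egr1 calls ended without intestine replicate 1 (adjusted p = 0.0615, 0.0806 and 0.0928) or intestine replicate 2 (0.0651, 0.0956 and 0.127). The Fos and Egr1 calls against the mean each ended without 6 of the 8 libraries. The exceptions were forestomach replicate 2 and colon replicate 2 for Fos, and hindstomach replicate 2 and colon replicate 2 for Egr1.

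Among the 3 tissues isolated in EDTA, Fos alone was called. It rose in the hindstomach over the intestine by 2.75 ± 0.53 (6.71-fold, adjusted p = 0.0436), 1 of 8 members with 2.47% of genes called higher, and this comparison shares the intestine libraries with the one above. The call ended with median-of-ratios scaling, where the difference was 2.47 and adjusted p = 0.0527, and without any library of hindstomach, intestine or colon. Jun, at a difference of 1.01 ± 0.22, missed the threshold (adjusted p = 0.0583). Leaving out the library labelled forestomach replicate 1, which is not compared here but feeds the shared spread, Fos and Jun were called (adjusted p = 0.00936 and 0.0146, with 9.96% of genes called higher). Ier2, at 0.42 ± 0.10 in that fit, had an adjusted p = 0.0303 but stayed under the fold limit.

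Between colon and intestine 0 of 8 members were called by limma and 0 had an unadjusted p under 0.05, with 0.38% of genes called in either direction (2.54% without the library labelled forestomach replicate 1, again with 0 members). The largest estimates were 1.11 ± 0.46 for Egr1 and 1.04 ± 0.53 for Fos. Between colon and hindstomach 0 of 8 were called and 3, Jun, Jund and Fos, had an unadjusted p under 0.05, with 1.5% of genes called (7.59% without that library, again with 0 members). Fos stood at -1.71 ± 0.53 and Jun at -0.83 ± 0.22 in colon minus hindstomach. With 2 libraries a tissue, a missed threshold does not show that levels were alike.

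The makeup of the Jun and Fos families differed between tissues, as shares of summed FPKM within a library, which do not depend on library scaling. Junb made up 34.4% and 54.6% of Jun, Junb and Jund together in forestomach replicates 1 and 2 and 15.6% to 19.2% in the other 6 libraries. Jun made up 45.4% and 44.0% in the hindstomach and 20.3% to 30.3% elsewhere. Jund was the most abundant of the 3 in intestine (56.4% and 52.3%) and colon (58.9% and 59.1%). The order of the Jun genes thus differed by tissue: Jun led in both hindstomach libraries, Jund in all 4 of intestine and colon, and in the forestomach Jund led in replicate 1 and Junb in replicate 2. The ratio of Junb to Jun was 1.28 and 2.69 in the forestomach, 0.374 and 0.435 in the hindstomach and 0.571 to 0.663 in intestine and colon. The summed level of the family was less variable, from 86.3 FPKM in intestine replicate 2 to 152 in forestomach replicate 2.

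Within the Fos family, counted with Fosl2, which encodes Fra-2, Fos held 64.3% of the library labelled forestomach replicate 1 but only 26.1% of replicate 2. It held 42.4% and 54.3% in the hindstomach, 23.3% and 21.5% in the intestine and 26.2% and 39.4% in the colon. Nearly all the rest was Fosl2, with Fosb at 4.40% or less and Fosl1 at 1.98% or less. The summed level was 56.5 and 60.9 FPKM in the forestomach, 34 and 51.4 in the hindstomach, 9.61 and 9.59 in the intestine and 13.6 and 20.6 in the colon. The forestomach libraries thus matched in the family sum while they differed in which gene supplied it.

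**Figure D3:**
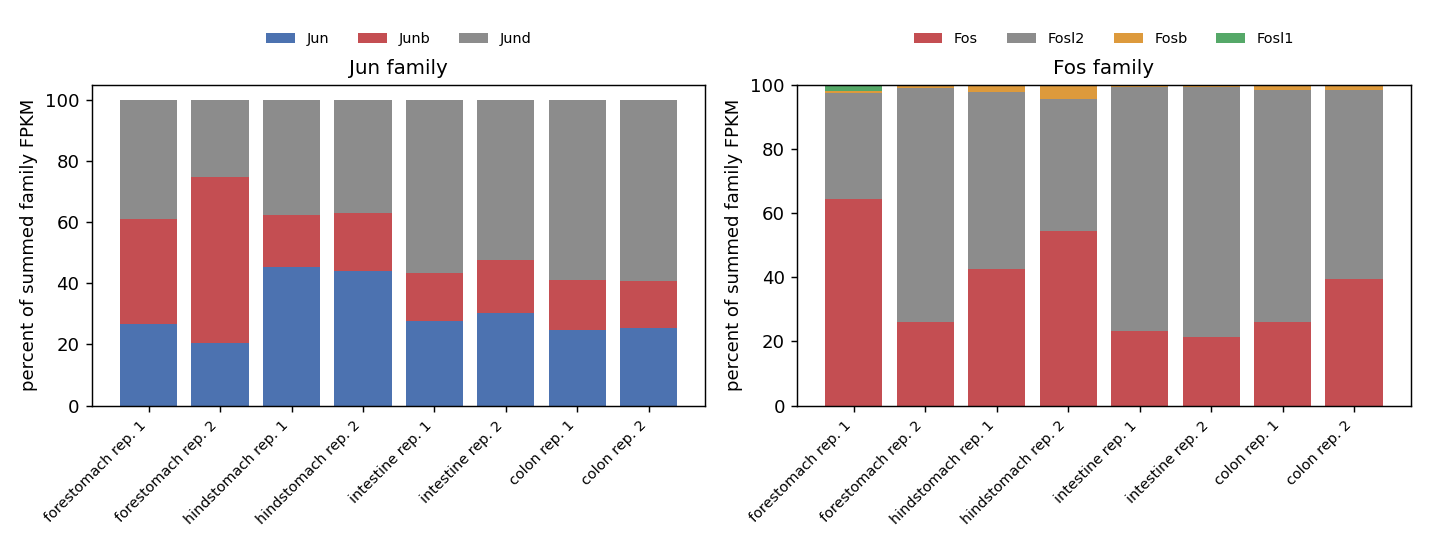
Share of each gene in the summed FPKM of the Jun family (left) and the Fos family (right), 1 stacked bar per library. Junb takes 34.4% and 54.6% of the Jun family in the forestomach and 15.6% to 19.2% in the other libraries.

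Other genes of the early response were read from 6 lists for the forestomach against the mean of the other 3 tissues, with counts and medians in a fit lacking forestomach replicate 1 in second place. The shares over all genes are those above, 3.8% higher and 9.69% lower, and 7.56% and 16% in second place, and the medians over all genes are -0.32 and -0.24. Of 20 other rapidly induced transcription factors 17 were tested, and 4 rose and 0 fell (5 and 1 of 16 in second place), with medians of 0.58 and 0.38. Klf4, a zinc finger factor of squamous differentiation, rose by 2.81 ± 0.25 (3.07 ± 0.27 in second place): 212 and 306 FPKM in the forestomach, 41.3 and 61.2 in the hindstomach, 13.7 and 11.9 in the intestine and 56.6 and 81.1 in the colon. Egr3, a relative of Egr1, was at 2.30 and 4.81 FPKM in the forestomach and at most 0.240 elsewhere. It passed the low-value filter only through the forestomach libraries, so its call was selected in part by the group where it is high, and leaving it aside 3 of 16 rose. Klf6 (1.19 ± 0.27) and Csrnp1 also rose. Irf1, an interferon response factor, was at 10.2 and 1.32 FPKM in the forestomach and 8.52 to 34.1 elsewhere, and was called lower against the intestine with all libraries, and against the mean of the other tissues only without that library (adjusted p = 0.00144).

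Of 22 feedback regulators 21 were tested, and 4 rose and 0 fell (8 and 1 in second place), with medians of 0.29 and 0.85. They were Dusp1, a phosphatase that switches off MAP kinases (10.1 and 24.9 FPKM in the forestomach, 0.520 to 3.69 elsewhere), Nfkbia, the NF-kB inhibitor (59.7 and 73.3 against 13.96 to 22.5), Gadd45g (18.9 and 17.7 against 2.29 to 9.40) and Btg2. Btg2, an antiproliferative gene, shared with Fos its high level in both stomach tissues, at 56.8 and 47.5 FPKM in the forestomach, 53.7 and 53.8 in the hindstomach and 8.64 to 16.6 in intestine and colon. Sgk1, a serum-induced kinase, reached 66.8 FPKM in forestomach replicate 1, 10.4 in forestomach replicate 2 and 2.01 to 8.93 elsewhere, and was not called against the mean (adjusted p = 0.0594), but was called higher against the hindstomach in the fit lacking replicate 1. Tnfaip3, at 1.71 and 0.546 FPKM against 1.98 to 3.87, was called lower without that library. Dusp6, Spry2 and Spry4, which curb Erk signalling, had estimates of -0.19, -0.33 and -0.41 and were called lower without that library against colon, Spry2 also against hindstomach.

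Of 10 other AP-1 and small Maf genes 9 were tested, and 1 rose and 0 fell (2 and 0 in second place), with medians of -0.25 and -0.25. Fosl2 rose by 1.22 ± 0.32 (1.82 ± 0.15 in second place), at 18.7 and 44.3 FPKM in the forestomach, 18.8 and 21.2 in the hindstomach, 7.30 and 7.47 in the intestine and 9.87 and 12.2 in the colon. Jdp2, an AP-1 repressor, was at 3.48 and 6.63 FPKM in the forestomach and 0.408 to 4.61 elsewhere, and was added without the library in doubt. Batf and Batf2 had estimates of -0.25 and -0.35 and were called lower only in that fit, against hindstomach and colon respectively. Of 15 secreted and surface products 9 were tested, and 1 rose and 0 fell (2 and 1 in second place), with medians of 0.23 and -0.60, so that the sign turned. It was F3, the tissue factor gene, at 8.32 and 16.7 FPKM in the forestomach, 0.337 to 4.13 in hindstomach and intestine and 9.41 and 19.8 in the colon. Without the library in doubt Hbegf, a ligand of the Egf receptor, rose (8.16 and 29.2 FPKM against 5.50 to 7.97) and Thbs1 fell. Lif was called lower against the intestine alone, and Plaur only without that library, against the hindstomach.

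Of 17 upstream kinases and serum response and Creb factors, all tested, 0 rose and 1 fell (0 and 2 in second place), with medians of -0.20 and -0.10. Rps6ka1, a kinase activated by Erk, fell by 1.87 ± 0.22 on the log2 scale (by 2.25 ± 0.11 in second place), with 23.2 and 13.4 FPKM in the forestomach against 50.9 to 80.2 elsewhere, and Mapk9 was added in the second count. Of 11 heat shock genes, all tested, 3 rose and 2 fell (4 and 1 in second place), with medians of -0.02 and -0.06. The inducible chaperone genes Hspa1a (12.5 and 13.96 FPKM against 0.307 to 1.97) and Hspa1b (23.5 and 27.2 against 0.745 to 3.49) rose with Hspb1 (195 and 1080 against 1.23 to 14.8), while Hspd1 and Hspe1, which encode the mitochondrial chaperonin and its partner, fell. Dnajb1 was added as higher in the second count, where Hspe1 was no longer called. Dnaja1, another Hsp70 partner, was called lower only against the hindstomach and without that library. These lists were chosen with earlier results of these data known, so their counts describe these libraries and single out no list.

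**Figure D4:**
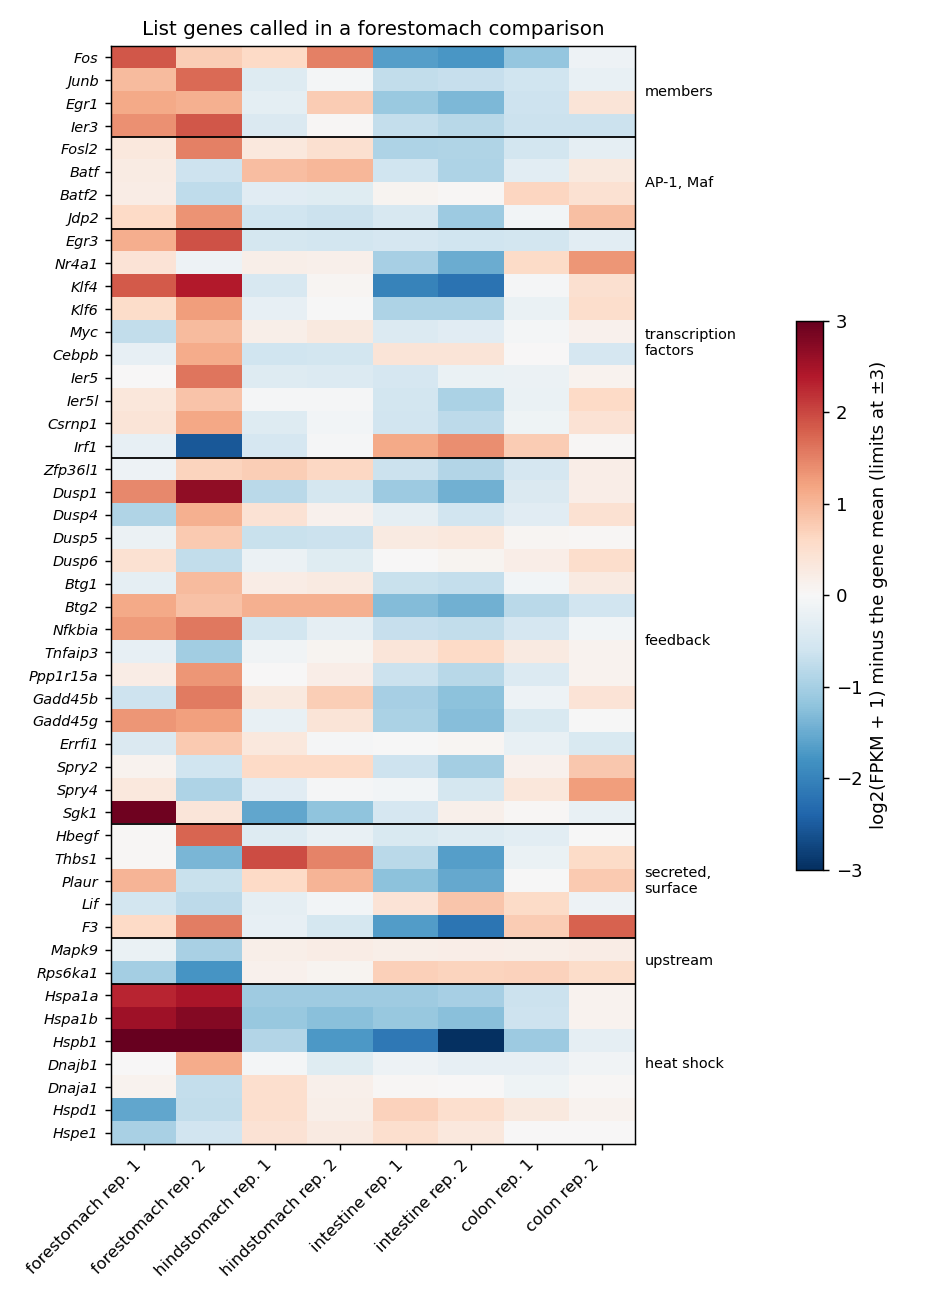
Deviation of log2(FPKM + 1) from the gene's mean over 8 libraries (color, limits at ±3) for the members and list genes called in any forestomach comparison with all 8 libraries or without forestomach replicate 1. Junb, Ier3, Klf4, Dusp1, Nfkbia, Hspa1a and Hspa1b are red in both forestomach columns, while Sgk1 differs between them (66.8 and 10.4 FPKM).

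Likeness among the members over the 8 libraries is given as Pearson's r of log2(FPKM + 1), for description only, since points of a tissue are not independent and share library scaling. Junb and Ier3 had r = 0.98 with each other. Egr1 had r = 0.91 with Fos, 0.84 with Junb and 0.81 with Ier3, but 0.56 with Jun. Fos had r = 0.80 with Jun, 0.68 with Junb and 0.70 with Ier3. Jund and Ier2 had r between -0.42 and 0.53 with all other members. Among 6793 genes averaging at least 10 FPKM in a tissue, those most like Ier3 were Ermp1 (r = 0.99), the squamous keratin gene Krt1 (0.99, with 179 and 299 FPKM in the forestomach) and Junb itself. Those most like Junb were Ecm1 (0.99), Krt78 (0.99) and Osbpl2 (0.99). For Fos they included Syt8 and Rasgef1b (0.99 and 0.98) and for Jun Kctd14 and Syngr1 (0.97 each), and for Egr1 they were Tmem50a, Nfix and Gadd45g (each 0.97). Ermp1, Krt1, Ecm1, Krt78, Nfix and Gadd45g averaged 10 FPKM only in the forestomach, and Kctd14 and Syngr1 only in the hindstomach. Those genes were thus selected in part by the tissue where the member is high, and their r largely restates that contrast. Squamous marker sums, 1439 and 15394 FPKM in the forestomach, were higher in replicate 2 as Junb and Ier3 were. In the hindstomach they ran the other way, at 94.02 and 24.0 FPKM while both genes were higher in replicate 2, and the part of squamous cell content in their levels was not tested.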

How the data were processed

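Poly(A) RNA was profiled in 8 libraries. The deposited values are FPKM in 1 table; the submitters' processing notes name STAR 2.4.2a and mm10 (GRCm38), but no source used here gives the FPKM program, gene models or strandedness. Another 4 columns could be tied to none of the samples and stayed out. Because FPKM is relative to the library total, a few very abundant genes lower all others: the top 10 genes made up 52.5% of the total in forestomach replicate 1 and 6.27% to 17.4% elsewhere.

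Genes reaching 1 FPKM in 2 or more libraries were fitted as log2(FPKM + 1) with 4 tissue means, leaving 4 residual degrees of freedom, using limma 3.58.1 under R 4.3.3 with trended empirical Bayes variances, and p-values were adjusted by Benjamini-Hochberg over all genes tested within each of 7 comparisons. The fit was tried on simulated data whose spread was taken from hindstomach, intestine and colon alone. That trial therefore does not cover how far the forestomach libraries differ from each other. Relative depth is the most frequent ratio of values under 0.1 FPKM to intestine replicate 1; if that ratio compares unequal read numbers, it is off by a whole-number factor. limma has no counting error term. Named genes are the 10 members. Of each list they are up to 4 genes with the largest difference from the mean of the other 3 tissues among those called in any forestomach comparison, with or without forestomach replicate 1, and those going the other way; Btg2, Csrnp1 and Dnajb1 were named beyond this after their values were seen. For likeness they are the 3 genes with the highest r for each called member, of which 1 for Fos and 1 for Jun are not reported here. The members and lists were chosen with earlier results of these data known. Alternatives were another scaling, pseudocount, filter, variance model and fold rule, a fit of the compared tissues only, a block for replicate number, and leaving out libraries in turn.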

Additional observations from a re-analysis of the deposited data

How the results depend on the processing

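The forestomach calls of Ier3 and Junb against the mean of the other 3 tissues held under all 14 alternatives run. The count of members called there was 4, and it was 2 with no filter on low values and 2 with the replicate block, Fos and Egr1 being lost in both. Leaving out a library gave 2 to 4. Against the hindstomach the count of 2 became 1 with no filter and 0 in a fit of the 2 tissues compared, and 0 to 3 with a library left out. Against the intestine the count of 4 became 2 in a fit of those tissues and 1 to 5 with a library left out. Against the colon the count of 2 became 0 in a fit of those tissues and 1 to 4 with a library left out. For hindstomach minus intestine the count of 1 became 0 with median-of-ratios scaling, with no filter and with the replicate block, 3 (Jun, Fos and Egr1) in a fit of those tissues and 0 to 2 with a library left out. Colon minus intestine and colon minus hindstomach stayed at 0 throughout. The number of genes called over the whole data changed with the setting too, and no share over all genes is given beside these counts. They tell which member calls held and are not comparable in size between settings.

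Against the mean, signs turned only for members not called. Leaving out a library moved Jun (0.02) between -0.12 (forestomach replicate 1) and 0.17 (forestomach replicate 2), with -0.00017 for hindstomach replicate 1 and -0.06 for colon replicate 1. It moved Jund (-0.18) between -0.44 and 0.080, and Atf3 (0.75) between -0.0027 and 1.51, both for forestomach replicates 1 and 2. Jund was 0.15 with median-of-ratios scaling. The block uses replicate numbers, and the labels do not say if same-numbered libraries belong together. Deviations of same-numbered libraries correlated between -0.58 (intestine and colon) and 0.27 (hindstomach and intestine), which does not settle it. With the block the total of genes called for hindstomach minus intestine went from 648 to 237. It changed no call of a member other than the Fos and Egr1 calls above. Fosb and Fosl1 were fitted only with no filter, where neither was called. The separations between tissues were checked after the data were seen. Those of Jun and Ier2 as highest in the hindstomach and of Jund as highest in the colon were lost with median-of-ratios scaling. So were those of Atf3, Fosl1, Ier3 and Junb as lowest in the intestine.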
